A study of Mus musculus with 6 samples.

Results

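This report describes the genes of mitosis and of the G2 phase that leads into it, 47 mouse genes chosen by symbol from a fixed list. Of these, 44 have a row of their own among the 22001 genes of the deposited table. Ccnb2, Foxm1 and Mybl2 stand only in rows that name another gene beside them, and their values are given as those of the joint rows. The genes encode cell cycle regulators (15), kinetochore and checkpoint proteins (16), spindle proteins (8), cytokinesis proteins (6) and a pair of chromosome proteins.

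The series is polyA RNA sequencing of mammary tumor epithelial cells from female FVBN mice aged 7 weeks. The labels name 3 mice with PyMT tumors and Elp3 deleted (Elp3 cKO), the design text adding MMTV-CRE, and 3 mice with PyMT tumors as controls. Tumors in all 6 mice carried the polyoma middle T oncogene (PyMT), were of like size, and were broken into single cells and enriched for epithelium with a kit before RNA was taken. MMTV-Cre is a recombinase under a mammary tumor virus promoter, active mainly in mammary epithelium, so that other cells of a tumor keep the gene. Elp3 encodes the catalytic subunit of Elongator, which modifies tRNA.

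The table does not allow a comparison of the genotypes. In each of 24308 rows, Elp3 cKO column 1 equals control column 1, and the same is true of the columns numbered 2 and 3, with 0 rows that differ. The values are therefore given for 3 distinct profiles, 1, 2 and 3, and no profile is assigned to a genotype. Elp3 itself stood at 15.6, 17.9 and 19.0 FPKM in profiles 1, 2 and 3, and checks neither label. Each profile is 1 library, so differences between profiles have no replicate check and no test was made. Levels are in FPKM, fragments scaled by the authors to transcript length and library size, and genes are set beside each other on that scale. Whether coverage along long and short transcripts differed between the libraries was not checked. The files give no counts, and absolute depth is unknown.

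Cells divide after Cdk1, bound to its A- and B-type cyclins, phosphorylates proteins that condense chromosomes and build the spindle. Kinetochores tie chromosomes to spindle microtubules, and a checkpoint holds back the anaphase-promoting complex until every chromosome is attached. That ubiquitin ligase then has securin and the cyclins destroyed, and the contractile ring parts the daughter cells. Most of these genes are transcribed late in the cell cycle, and their mRNA is used as a reading of how many cells of a tumor are dividing.

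Promoter sequences show what many of these genes share beyond their names. The cell cycle genes homology region (CHR, letters TTTGAA, with the variant TTTAAA) is the element through which the MuvB complexes, with B-Myb and FOXM1, act on G2/M promoters. CCAAT boxes bind the factor NF-Y and often accompany it. RefSeq (GRCm38.p6) gives 41 promoters for 38 of the 47 genes, each of 300 bases, from 250 before the annotated start to 50 after. Aurkb, Spc24, Tpx2, Incenp, Cdc25c, Ccna2, Dlgap5, Foxm1 and Kif20a were not matched. The sequences below show 150 bases, from 120 before the start to 30 from it on, 5′ to 3′ on the gene strand. They belong to regulators (Cdk1, Ccnb1, Cdc20, Ube2c) and to genes of other roles (Cdca8, Hmmr, Prc1). Capitals mark CHR letters and CCAAT boxes on either strand, so that TTCAAA and ATTGG are the same elements read on the opposite strand. The sites are Cdk1, chr10:69352883-69353032 (minus strand), Ccnb1, chr13:100786457-100786606 (minus), Cdc20, chr4:118437314-118437463 (minus), Ube2c, chr2:164769809-164769958 (plus), Cdca8, chr4:124936888-124937037 (minus), Hmmr, chr11:40733408-40733557 (minus), and Prc1, chr7:80294331-80294480 (plus).
Cdk1: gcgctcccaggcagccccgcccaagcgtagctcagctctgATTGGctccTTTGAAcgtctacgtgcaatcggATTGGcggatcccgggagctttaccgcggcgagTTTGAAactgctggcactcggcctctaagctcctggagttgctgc
Ccnb1: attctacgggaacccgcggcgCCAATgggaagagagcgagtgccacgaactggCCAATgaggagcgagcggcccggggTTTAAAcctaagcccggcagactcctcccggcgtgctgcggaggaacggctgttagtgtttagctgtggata
Cdc20: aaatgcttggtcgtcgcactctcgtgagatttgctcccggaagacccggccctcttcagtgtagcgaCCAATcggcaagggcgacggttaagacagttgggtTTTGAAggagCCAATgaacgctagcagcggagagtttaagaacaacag
Ube2c: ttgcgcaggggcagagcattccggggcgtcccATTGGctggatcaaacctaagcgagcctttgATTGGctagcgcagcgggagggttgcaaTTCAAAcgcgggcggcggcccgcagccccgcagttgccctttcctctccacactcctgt
Cdca8: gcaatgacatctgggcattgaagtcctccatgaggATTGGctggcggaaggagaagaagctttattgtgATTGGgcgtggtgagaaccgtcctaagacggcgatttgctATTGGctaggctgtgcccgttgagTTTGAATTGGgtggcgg
Hmmr: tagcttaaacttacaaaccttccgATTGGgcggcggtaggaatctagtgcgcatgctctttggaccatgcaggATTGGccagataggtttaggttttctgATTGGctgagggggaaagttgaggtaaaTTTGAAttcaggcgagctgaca
Prc1: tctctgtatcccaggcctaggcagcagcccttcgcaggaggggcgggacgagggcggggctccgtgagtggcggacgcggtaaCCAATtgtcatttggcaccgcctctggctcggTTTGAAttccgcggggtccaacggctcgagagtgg

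TTTGAA on either strand was found in 30 of the 41 promoters (73.2%), against 17.9% of all 32851 promoters in the RefSeq table and 11.3% of those of genes at 1 FPKM or more. A CCAAT box was found in 32 of 41 (78.0%), against 37.4% of all promoters. At least 2 CCAAT boxes stood in 22 of 41, against 11.7%, and CHR letters together with a CCAAT box in 27 of 41, against 6.95%. The variant TTTAAA was in 9 of 41, against 13.2%. These shares describe letters in a window and show no binding, and the counts of paired boxes and of letters near the start were chosen after the matches were seen. The number of promoters per gene is unequal, since Bub3, Ect2 and Prc1 have 2 overlapping windows each.

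The CHR letters lay close to the start. Of 38 matches, 28 fell within 50 bases on either side of it, with the median match 10 bases before it, and 27 of 41 promoters held such a match, against 4.94% of all promoters. CCAAT boxes lay further upstream, the median of 72 being 66 bases before the start. In Cdc20 the CHR letters stood between a pair of CCAAT boxes, and in Ube2c they followed them. In Cdca8 the CHR letters overlapped a CCAAT box by 1 base, the only such overlap among the 41 promoters. Ccnb1 held the variant TTTAAA and no TTTGAA. Cytokinesis genes held CHR letters in all 7 of their promoters, spindle genes in 5 of 6, kinetochore and checkpoint genes in 9 of 14, and regulators in 7 of 12. In 5 promoters (Mybl2, Pttg1, Mad2l1, Nuf2 and Nusap1) none of the 3 sets of letters was found, a share of 12.2%, against 45.7% of all promoters.

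**Figure D1:**
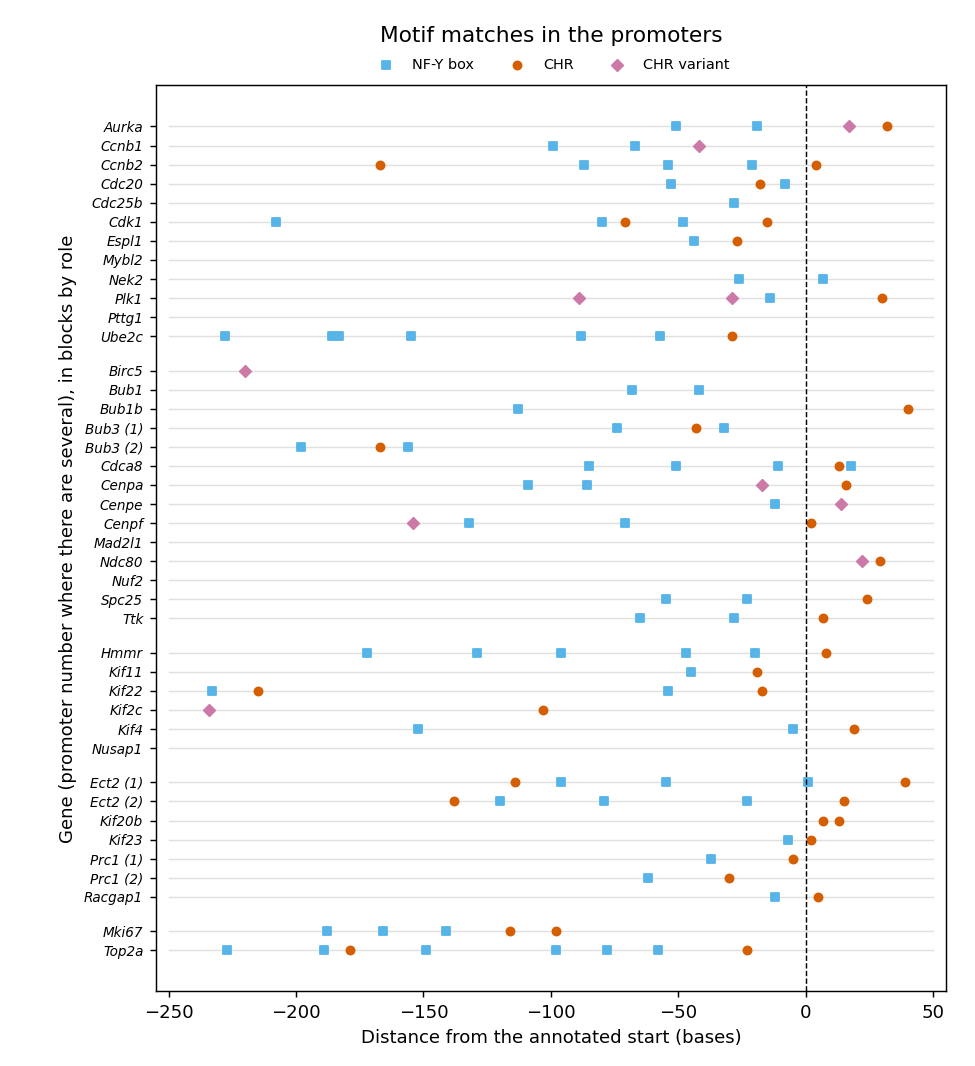
Matches of CHR letters, their variant and CCAAT boxes (NF-Y box) in 41 promoters of 38 mitosis and G2/M genes, by distance in bases from the annotated start (dashed line, 0). CHR points cluster around the start, and CCAAT boxes lie mostly to their left.

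All 44 genes were expressed, each with a mean of 1 FPKM or more over the 3 profiles, against 49.0% of the 22001 genes of the table. Their median level was 5.18, 6.04 and 5.60 FPKM in profiles 1, 2 and 3, below the median of 12.3, 12.5 and 12.8 FPKM over the 10770 genes at 1 FPKM or more. In bulk RNA, fewer dividing cells and less RNA per cell cannot be told apart. Means ran from 1.46 FPKM for Espl1 to 39.6 FPKM for Bub3, with 26 genes reaching 5 FPKM and 12 reaching 10. By role, the median for the regulators was 8.92 FPKM (range over profiles 7.82 to 10.0). It was 6.51 FPKM (6.41 to 6.75) for cytokinesis genes, 4.89 (4.46 to 4.93) for kinetochore and checkpoint genes, and 4.35 (4.03 to 5.11) for spindle genes. This order depends on where genes with several roles are placed, and spindle genes were above kinetochore genes in profile 2. With the chromosomal passenger complex counted as cytokinesis, and Kif20a, Kif20b, Kif23 and Kif2c moved as well, the cytokinesis median was 10.2 FPKM, above that of the regulators, and the kinetochore median 3.71, below the spindle median of 4.70.

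**Figure D2:**
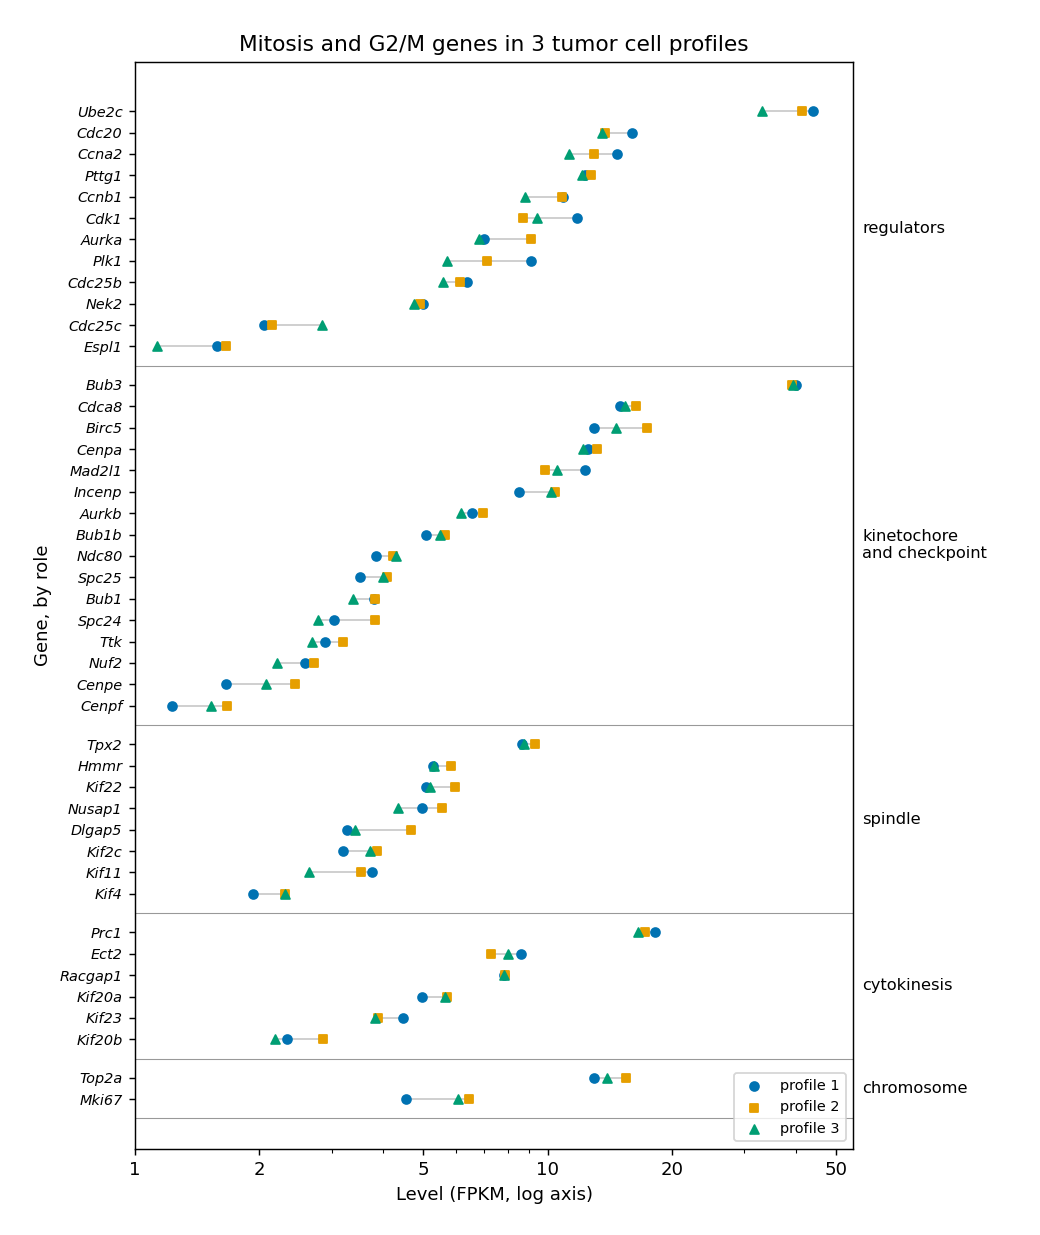
Level of each of 44 mitosis and G2/M genes in profiles 1, 2 and 3 (FPKM, log axis), grouped by role and ordered by mean, with a grey line joining the lowest and the highest profile. Ube2c and Bub3 stand apart near 40 FPKM, and most other genes lie between 2 and 20.

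Ube2c and Cdc20, which act in anaphase, were the most abundant regulators with a row of their own. Ube2c, the ubiquitin-conjugating enzyme that works with the anaphase-promoting complex, stood at 44.0, 41.3 and 33.1 FPKM in profiles 1, 2 and 3 (chromosome 2, 164769929 to 164772902, mm10). Cdc20, which activates that complex, stood at 16.0, 13.8 and 13.6 FPKM. Ube2c was 2.75 times Cdc20 (range over profiles 2.44 to 2.99), and both were highest in profile 1 and lowest in profile 3. Securin, Pttg1, was even across profiles at 12.3, 12.8 and 12.1 FPKM. Separase, Espl1, the protease that securin restrains, stood at 1.58, 1.66 and 1.13 FPKM. Its mean of 1.46 FPKM was the lowest of the 44, just below the 1.47 of Cenpf, which was the lower in profile 1, at 1.23. Every Pttg1 value was far above every Espl1 value.

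The core mitotic kinase and its cyclins were present at like levels. Cdk1 (chromosome 10, 69336635 to 69352912) stood at 11.8, 8.74 and 9.42 FPKM, profile 1 being the high one. Cyclin B1, Ccnb1, had 10.9, 10.8 and 8.83 FPKM, so that profiles 1 and 2 were level and profile 3 lower. Ccnb1 over Cdk1 was 0.925, 1.24 and 0.937, with Ccnb1 the higher in profile 2 only. Cyclin A2, Ccna2, had 14.7, 13.0 and 11.3 FPKM, and was above Ccnb1 in each profile. The joint row of Ccnb2 and Rnf111 stood at 24.9, 23.2 and 23.8 FPKM, and the part of cyclin B2 in it is not known.

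Phosphatases and kinases that switch Cdk1 on or act beside it had lower means than Cdk1. Cdc25b had 6.37, 6.12 and 5.57 FPKM and Cdc25c 2.05, 2.15 and 2.85, both being phosphatases that remove inhibitory phosphates from Cdk1. Cdc25b was the more abundant in every profile, by 2.85 times (1.96 to 3.11). The polo-like kinase Plk1 (chromosome 7, 122159437 to 122169875) had 9.14, 7.14 and 5.71 FPKM and the widest span of all 44 genes, 0.60 on log2(FPKM + 1). It was the only member whose highest profile was over 1.5 times its lowest (1.60 times), a ratio passed by 18.5% of all genes at 1 FPKM or more. The spindle pole kinase Aurka had 7.01, 9.11 and 6.82 FPKM, profile 2 being the high one. Nek2, the kinase that lets centrosomes part, was even, from 4.74 to 5.00 FPKM.

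The transcription factors of the G2/M program could be read only jointly. Foxm1 shares its row with 4933413G19Rik, at 5.41, 4.91 and 4.73 FPKM. Mybl2, which encodes B-Myb, shares its row with Ift52, a cilium gene, at 15.3, 16.0 and 12.9 FPKM. Both joint rows were lowest in profile 3, as were 31.5% of all genes at 1 FPKM or more, while the joint row of Ccnb2 was lowest in profile 2. How reads were divided between the genes of a joint row is not stated by the sources at hand.

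Of the checkpoint genes, Bub3 led. Bub3, which binds phosphorylated kinetochores and carries Bub1 and BubR1 there, stood at 40.1, 39.1 and 39.5 FPKM (chromosome 7, 131560391 to 131571898), a level that hardly moved between profiles. Its partners were far lower: Bub1 ranged from 3.37 to 3.82 FPKM over the profiles and Bub1b, the gene of BubR1, from 5.08 to 5.64. Bub3 was 10.6 times Bub1 (10.3 to 11.7). Mad2l1, which encodes the checkpoint effector Mad2, had 12.3, 9.88 and 10.5 FPKM. Ttk, the kinase Mps1 that starts checkpoint signalling, was among the lower members at 2.69 to 3.20 FPKM.

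Kinetochore structure genes covered a wide range. The centromeric histone variant Cenpa had 12.5, 13.2 and 12.2 FPKM. The large proteins of the outer kinetochore corona, Cenpe and Cenpf, were low, Cenpf at 1.23, 1.67 and 1.53 FPKM and Cenpe at 1.66, 2.43 and 2.08. The 4 subunits of the Ndc80 complex, the rod that grips microtubules and holds its subunits in equal number, had means between 2.50 FPKM (Nuf2) and 4.12 FPKM (Ndc80). Ndc80 was 1.55 times Nuf2 (1.49 to 1.95), a smaller gap than that between Bub3 and Bub1.

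The chromosomal passenger complex, which corrects faulty attachments and later steers cytokinesis, was highest in profile 2 for all 4 genes. Of all genes at 1 FPKM or more, 28.7% were highest in that profile. Cdca8, encoding borealin, had 15.0, 16.4 and 15.4 FPKM. Birc5, encoding survivin, had 13.0, 17.4 and 14.7 FPKM, the widest span of its role at 0.40. The kinase subunit Aurkb had 6.56, 6.97 and 6.16 FPKM, and the scaffold Incenp ranged from 8.53 to 10.4. Cdca8 was 2.36 times Aurkb (2.28 to 2.49), so the kinase was the rarest transcript of the complex. Aurka and Aurkb, related kinases of the poles and of the chromosomes, were at like levels, with Aurka 1.11 times Aurkb (1.07 to 1.31).

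Spindle genes were low, with all 8 means under 10 FPKM. Tpx2, which activates Aurka and seeds microtubules near chromosomes, had 8.66, 9.34 and 8.75 FPKM. Hmmr, a microtubule-associated protein of spindle poles, had 5.27, 5.84 and 5.31 FPKM. Dlgap5, which stabilizes spindle fibres near kinetochores, had 3.27, 4.66 and 3.42 FPKM and the widest span of the spindle genes at 0.41. Of the spindle motors, the chromokinesin Kif4 was the lowest, at 1.93, 2.31 and 2.30 FPKM. Kif11, the motor that pushes the poles apart, ranged from 2.65 to 3.75 FPKM and was the one spindle gene that was highest in profile 1. The microtubule depolymerase Kif2c, the chromokinesin Kif22 and the microtubule binder Nusap1 had means between 3.59 and 5.41 FPKM.

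Cytokinesis genes differed in level by partner. Prc1, which bundles the antiparallel microtubules of the central spindle, had 18.2, 17.2 and 16.6 FPKM (chromosome 7, 80294276 to 80316259). Ect2, the exchange factor that turns on RhoA at the cleavage site, had 8.60, 7.31 and 8.01 FPKM. Racgap1 and Kif23 form centralspindlin, the complex that recruits Ect2. Racgap1 was the most even of the 44 genes, from 7.85 to 7.89 FPKM, and was 2.03 times Kif23 (1.76 to 2.05). Of the kinesins that bring the passenger complex to the midzone or complete abscission, Kif20a ranged from 4.97 to 5.70 FPKM, and Kif20b, the lowest of the role, had 2.33, 2.85 and 2.19 FPKM.

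Both chromosome genes were lowest in profile 1, as were 40.1% of all genes at 1 FPKM or more. Top2a, the topoisomerase that untangles sister chromatids, had 13.0, 15.5 and 14.0 FPKM. Mki67, which encodes the proliferation antigen Ki-67 that coats mitotic chromosomes, had 4.53, 6.45 and 6.08 FPKM. Top2a was 2.40 times Mki67 (2.30 to 2.86).

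Differences between profiles were small, and their pattern was not the same for all roles. The median span between the highest and the lowest profile was 0.21 on log2(FPKM + 1), beside 0.27 over all 10770 genes at 1 FPKM or more. Only Plk1 of the 44 spanned 0.5 or more, beside 17.7% of all genes. At lower levels the members had smaller median spans than all genes of like level: at means from 1 to 5 FPKM the median span was 0.24 for 18 members and 0.33 for 2672 genes, and from 5 to 10 FPKM it was 0.18 for 14 members and 0.28 for 1927 genes. From 10 to 50 FPKM the values were close, 0.23 for 12 members and 0.25 for 4541 genes. In 8 of the 44 genes the highest profile was within 1.1 times the lowest, beside 15.5% of all genes, a share near that of the members. Over all genes with no minimum level the median span was 0.14, below that of the members. Without profile 1 the median span was 0.12 for the members and 0.14 for all genes at 1 FPKM or more.

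**Figure D3:**
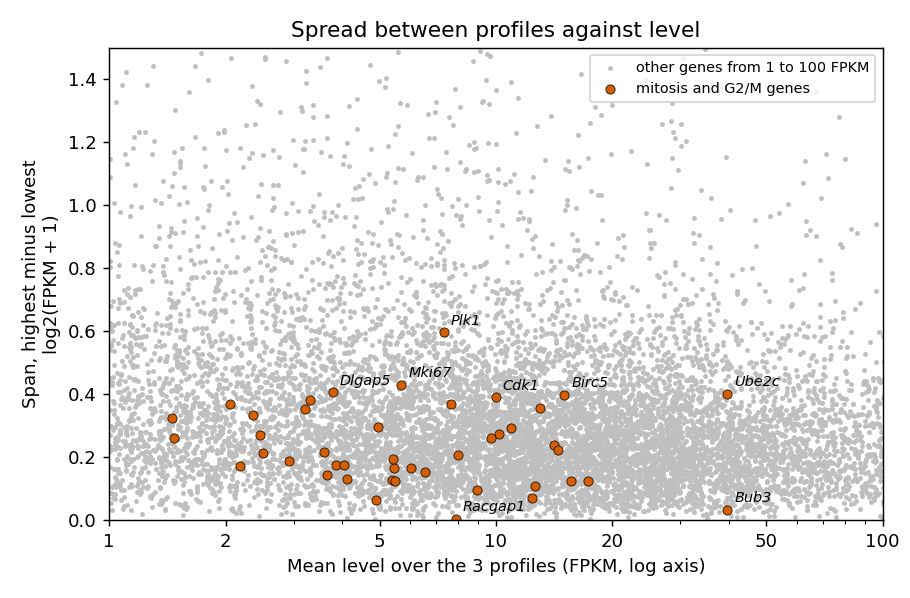
Span between the highest and the lowest profile on log2(FPKM + 1) against mean level (FPKM, log axis) for the 44 mitosis and G2/M genes (orange) and other genes from 1 to 100 FPKM (grey), spans over 1.5 not drawn. Plk1 at 0.60 is the highest orange point, and Racgap1 and Bub3 lie near 0.

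Profile 2 most often held the highest level. Of the 44 genes, 28 were highest in profile 2, against 28.7% of all genes at 1 FPKM or more. A further 14 were highest in profile 1, against 34.8% of all genes, and 2 in profile 3, against 36.5%. The lowest level was in profile 3 for 21 genes, against 31.5% of all genes, in profile 1 for 19, against 40.1%, and in profile 2 for 4, against 28.3%. With quantile normalization 28 were lowest in profile 3 and 12 in profile 1. The 2 genes highest in profile 3 were Ndc80 and Cdc25c, singled out after their values were seen.

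The profile that was highest differed by role. Of 12 regulators, 8 were highest in profile 1, against 34.8% of all genes at 1 FPKM or more, and 10 lowest in profile 3, against 31.5%. Ube2c, Plk1, Ccna2, Ccnb1 and Cdc20 were among both. The counts take in narrow differences, such as that of Ccnb1, at 10.9 FPKM in profile 1 and 10.8 in profile 2. Of 16 kinetochore and checkpoint genes, 13 were highest in profile 2, against 28.7% of all genes, and so were 7 of 8 spindle genes and both chromosome genes. Cytokinesis genes were divided, 3 highest in profile 1 and 3 in profile 2. With profiles rescaled by their median ratio, the regulators again counted 8 and 10, and the kinetochore and checkpoint genes counted 12 highest in profile 2. With quantile normalization the regulators counted 9 highest in profile 1 and 10 lowest in profile 3, and the kinetochore genes 11 highest in profile 2. The low side was less steady: 6 of 8 spindle genes were lowest in profile 1 as deposited, against 40.1% of all genes. With median-ratio scaling 4 were lowest there, and with quantile normalization 2, where the other 6 were lowest in profile 3. The roles were not tested against each other, since each profile is 1 library.

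**Figure D4:**
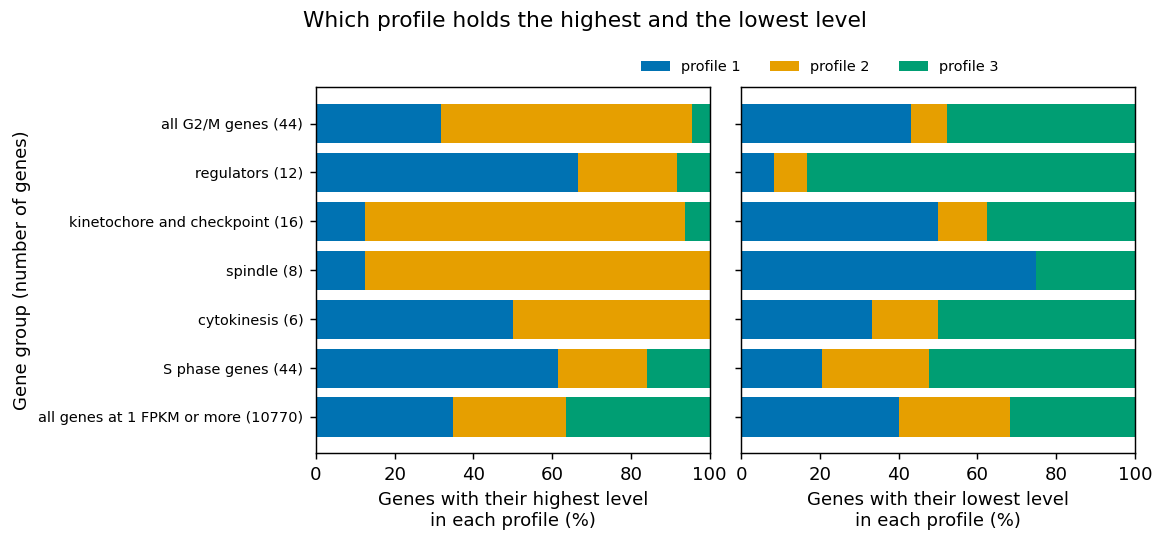
Share of genes (%) whose highest level (left) or lowest level (right) is in profile 1, 2 or 3, for the mitosis and G2/M genes, 4 of their roles, S phase genes and all genes at 1 FPKM or more. Regulators are mostly highest in profile 1 and lowest in profile 3, and kinetochore and spindle genes are mostly highest in profile 2.

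**Figure D5:**
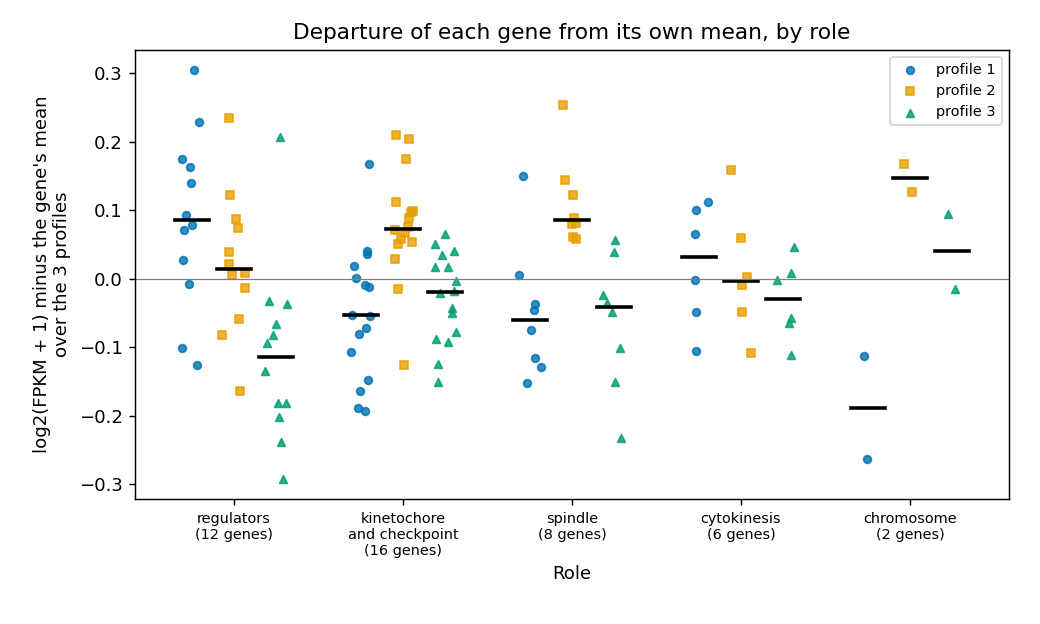
Departure of each gene from its own mean over the 3 profiles on log2(FPKM + 1), by role and profile, with black bars at the medians. Profile 3 is low for the regulators, and profile 2 is high for the kinetochore and spindle genes.

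Marker levels of other cell types also differed between these profiles. Epithelial markers were abundant throughout, their 12 genes summing to 12103, 12059 and 12669 FPKM in profiles 1, 2 and 3, sums carried mostly by Krt18 and Krt8. Their medians were 472, 363 and 440 FPKM. In profile 2, 7 of the 12 were lowest, against 28.3% of all genes at 1 FPKM or more, and 1, Krt18, was highest. Krt18 stood at 4232, 5010 and 4959 FPKM. The 11 lymphocyte markers summed to at most 0.557. All 10 fibroblast markers were lowest in profile 1, against 40.1% of all genes, with sums of 89.7, 207 and 328 FPKM. All 7 endothelial markers at 1 FPKM or more were lowest in profile 3, against 31.5% of all genes. The sums over all 8 were 39.5, 38.8 and 16.7. Basal markers, of which 6 of 8 were lowest in profile 1, summed to 519, 664 and 586, and 9 myeloid markers to at most 5.66, with Ptprc at no more than 0.0969 FPKM. Of the lymphocyte markers, Cd3d, Cd3g, Ms4a1 and Nkg7 were listed at 0 in every profile. Their part in the order of the profiles was not tested.

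Reads of some members may be shared with neighbours. For 7 members (Ccna2, Aurka, Kif4, Kif20a, Cdc20, Cdc25b and Nusap1) the deposited locus holds another row, for instance Exosc9 with Ccna2 and Elovl1 with Cdc20. Without them, 37 genes are left. Of these, 24 were highest in profile 2, against 28.7% of all genes at 1 FPKM or more, and 11 in profile 1, against 34.8%. The lowest level was in profile 1 for 17, near the share of 40.1% of all genes, and in profile 3 for 16, against 31.5%. The cytokinesis median was 7.85 FPKM without Kif20a, and the regulator median 7.94 FPKM without Ccna2, Aurka, Cdc20 and Cdc25b. Of the 8 regulators left, 5 were highest in profile 1 and 6 lowest in profile 3, beside 34.8% and 31.5% of all genes.

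S phase genes, which copy DNA before these genes act, were higher. The mitosis and G2/M genes had medians of 5.18, 6.04 and 5.60 FPKM in profiles 1, 2 and 3, against 10.9, 9.76 and 9.25 FPKM for 44 S phase genes. The S phase list was led by the replication clamp Pcna, at 99.1, 105 and 93.8 FPKM, and the helicase subunit Mcm7, at 31.0, 29.8 and 33.7. The median of the mitosis and G2/M genes was 0.48, 0.62 and 0.61 of the S phase median. Set as a ratio of summed FPKM, the 3 profiles were closer, at 0.66, 0.70 and 0.66. Of the S phase genes 27 were highest in profile 1, against 34.8% of all genes at 1 FPKM or more, and 23 lowest in profile 3, against 31.5%. Among the regulators these counts were 8 and 10 of 12.

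Other genes of mitosis, from lists that hold none of the 47, were measured too. Among 35 further regulators, 32 reached 1 FPKM, and their list had its median at 8.92 FPKM (8.91 to 9.39). It was led by Ube2s, which extends the chains that Ube2c starts, at 112, 118 and 129 FPKM, and the ligase subunit Anapc2, at 60.9, 59.8 and 55.4. Of these 32, 19 were highest in profile 1, against 34.8% of all genes at 1 FPKM or more. Profile 3 was the lowest for 10 of the 32, near the share of 31.5% of all genes. Profile 2 was the lowest for 13, against 28.3%, unlike the listed regulators, of which 10 of 12 were lowest in profile 3. Other kinetochore genes were lower, 28 of 30 reaching 1 FPKM around a middle value of 2.34 FPKM (2.31 to 2.62). Zwint, a kinetochore linker, was an exception within them at 111, 108 and 109 FPKM. Next by mean in this list was Mad2l2, at 11.6, 15.5 and 14.9, whose place at the kinetochore was not checked. Of these 28, 14 were highest in profile 1, against 34.8% of all genes, and 7 in profile 2, near the share of 28.7% of all genes.

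Condensin and cohesin genes, which fold and join chromosomes, all reached 1 FPKM (19 of 19), and the median was 9.45 FPKM (9.11 to 9.61). The cohesin subunit Rad21, at 76.0, 74.9 and 86.4 FPKM, and the cohesin release factor Wapal, at 38.1, 40.5 and 44.4, led them. Of the other spindle genes 20 of 22 reached 1 FPKM, and the median was 8.09 FPKM (8.04 to 8.11). They were led by the tubulins Tubb5, at 309, 292 and 377, and Tubb4b, at 193, 198 and 193. Of the 20 other spindle genes, 9 were highest in profile 2, against 28.7% of all genes at 1 FPKM or more. A further 8 were highest in profile 3, near the share of 36.5%, and 3 in profile 1, against 34.8%. Of the other cytokinesis genes 13 of 15 reached 1 FPKM, and the median was 20.5 FPKM (18.3 to 22.0). They were led by non-muscle myosin Myh9, at 338, 400 and 485, and Rhoa, at 313, 250 and 251. Tubulins, Myh9, Rhoa and cohesin also serve cells that are not dividing.

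The authors' summary column, a further value per gene, was low for these genes. Times 9, it ended at 4 decimals in 85.4% of the 6491 rows from 10 to 1000 FPKM, the rows in which this was checked, as a mean over 9 values would. If it is such a mean and the 6 sample columns supplied the 3 profiles 2 times each, the mean of 3 further values per gene follows by subtraction. That mean was below the mean of the profiles for 43 of the 44 genes, beside 58.1% of all genes at 1 FPKM or more. It was below 0.5 of it for 29 of the 44, beside 5.59% of all genes. If the profiles entered the summary once each, the ratio could not be below 0.5 unless the subtraction above gave a value below 0. The counts below 0.5 would then be 0 of the 44 and 6 of 10770 genes, which follows from the arithmetic and is no check on the 29. Low values were not limited to these genes, since 43 of 44 S phase genes were below the mean of the profiles and 18 below 0.5 of it. The samples behind the 3 further values are not known, so they belong to no group and were not compared with one.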

How the data were processed

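PolyA RNA of enriched tumor epithelial cells from 6 mice was sequenced, 3 labelled Elp3 cKO and 3 labelled control. The submitters' processing notes list TopHat2 (2.0.9), Cufflinks (2.1.1), Cuffdiff and the build mm10. What each tool did, which annotation was used and how overlapping genes were divided is not stated there. The authors deposited FPKM for 6 columns, along with a summary column, and the number of value columns that matched no sample was 0. The protocol does not describe a kit that keeps strand. Rows without a symbol (1366) and naming several genes (514) were left out of gene results. Where a symbol is on several rows, the row with the highest mean was taken.

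The planned limma fit between genotypes was not run, because same-numbered columns are identical. Medians, spans on log2(FPKM + 1) and counts of the highest and lowest profile were computed instead and checked on simulated data. Deposited starts were raised by 1. Motifs were searched on both strands of RefSeq promoters. A minimum mean of 1 FPKM defines the genes set beside the members. In each role the 2 genes with the highest mean, the lowest and the one with the widest span were given for every profile, as were Mki67, Cdk1, Ccnb1, Aurka, Aurkb, Plk1 and Cdc20, the joint rows, and the leading 2 of each other list of mitosis and S phase genes; other genes with such values were added to complete a complex. Members and lists were chosen with earlier results of these data known. Alternatives were 2 scalings, another pseudocount, other minimum levels, other roles, promoter windows and strands, and leaving out each replicate number. Without counts, the number of profiles limits the precision. Python 3.11.15, pandas 2.3.3, numpy 2.4.6 and matplotlib 3.10.9 were used.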

Additional observations from a re-analysis of the deposited data

Results flagged for a closer look

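The authors' summary column holds values that the 6 sample columns do not show. Times 9, the summary ended at 4 decimals in 85.4% of 6491 rows from 10 to 1000 FPKM, while each of the other multipliers between 2 and 12 gave 28.5% or less. If it is a mean over 9 values in which the 3 profiles stand 2 times each, 3 values per row remain, and their mean follows by subtraction. Of 24308 rows, 0 came out below 0 by more than a rounding tolerance of 1e-09 of the mean plus 1 FPKM. These remaining values were above 0 for all 44 mitosis and G2/M genes, and for 10762 of the 10770 genes at 1 FPKM or more. Values above 0 are thus no trait of the mitosis genes, and the samples they came from are not known.

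The remaining values were lower than the 3 profiles for 43 of the 44 genes, against 58.1% of all genes at 1 FPKM or more, Mad2l1 being the exception at 1.13 times. They were under 0.5 of the profile mean for 29 of 44, against 5.59% of all genes. If the profiles entered the summary once each, the ratio could not be under 0.5 unless the remaining values above were below 0. The counts under 0.5 would then be 0 of the 44 and 6 of 10770 genes, which follows from the arithmetic and is no check on the 29. The lowest ratio of the 44 would be 0.65. As first computed, the median ratio of the remaining values to the profile mean was 0.46 for the 44 genes (range 0.30 to 1.13), against 0.95 over all genes. Ube2c stood at 15.0 FPKM in the remaining values and 39.5 in the mean of the profiles, Cdk1 at 3.66 and 9.98, Ccna2 at 4.55 and 13.0, and Bub3 at 33.4 and 39.6. By role, the median ratio was 0.43 for regulators, 0.50 for kinetochore and checkpoint genes, 0.47 for spindle genes and 0.46 for cytokinesis genes. It was 0.57 for S phase genes, of which 43 of 44 were below the profiles and 18 under 0.5 of them. In the other lists of mitosis genes it was 0.83 for regulators, 0.66 for kinetochore genes, 0.65 for spindle genes, 0.79 for cytokinesis genes and 0.89 for condensin and cohesin genes. The lower values were thus neither limited to mitosis genes nor equal across them.

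Cell type markers moved as well: the median ratio was 0.68 for 12 epithelial markers, 7.30 for 8 basal markers, 2.81 for 7 endothelial markers and 1.27 for 10 fibroblast markers. It was 0.23 for the 2 myeloid markers at 1 FPKM or more, lower than for the mitosis genes. Those 2, Lyz2 and Csf1r, were low in the profiles, with means of 2.29 and 1.11 FPKM. The part of cell type markers in the lower mitosis values was not tested. If the profiles stood in the summary once each, 6 values would remain and the median ratio of the 44 genes would be 0.73. Over all genes at 1 FPKM or more, the lowest ratio would then be 0.50. That is the ratio of a gene with nothing left after profiles entered 2 times each are subtracted. The values carry no spread and no test.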

How the results depend on the processing

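No paired analysis was possible because each Elp3 cKO column repeats the control column of its number, which leaves nothing to pair. The replicate block and the other pseudocount for a fit between genotypes were not run for that reason. Of 104 alternative values for the other results, 89 stayed within 1 SD or a binomial interval, or within 1.5 times for counts. The median of the 44 genes over profiles, 5.60 FPKM, lay between 5.39 and 5.82 without each replicate number. Another assignment of roles gave medians of 3.71 FPKM for kinetochore and 10.2 for cytokinesis genes, and leaving out genes in shared loci, chosen after seeing the data, gave 7.85 for cytokinesis. With quantile normalization 12 genes were lowest in profile 1. Among the 26 genes at 5 FPKM or more, 15 were highest in profile 2 and 0 in profile 3, and 11 were lowest in profile 1 and 11 in profile 3. Of all genes at 1 FPKM or more, 28.7% were highest in profile 2 and 36.5% in profile 3. The lowest level was in profile 1 for 40.1% of them, near the share of the 26, and in profile 3 for 31.5%. The counts among the 26 are smaller because fewer genes enter. The ratio to S phase genes in profile 1 was 0.66 from summed FPKM. The share of all promoters with CHR letters was 8.01% with 100 bases before the start, 10.2% on the gene strand and 11.3% among genes at 1 FPKM or more, and for CCAAT boxes the first and second were 23.4% and 21.1%. In the same windows the member promoters with CHR letters numbered 28 and 22. The ratio behind the summary was 0.73 with the profiles entered once. The median span of the 44 genes, 0.21, lay between 0.12 and 0.15 without each replicate number, and that of all genes was 0.14 with no minimum level. The cause of these shifts was not tested beyond their construction. Depth is unknown, and with 3 single libraries small spans between profiles have no replicate check.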
